A study of Mus musculus with 20 samples.

Results

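The Six-family, Eya and Dach genes encode 3 groups of nuclear proteins that work together, and their RNA levels were followed here in mouse gut mesenchyme with and without the Polycomb subunit Eed. The members were taken by symbol from the deposited count tables: Six3, Six4, Six5, Eya1, Eya2, Eya3, Eya4, Dach1 and Dach2, 9 of the 43280 genes listed. RNA-seq covered 12 libraries, 2 per group, and ATAC-seq, which maps open chromatin, is held as 4 peak lists, each pooled from 2 libraries. Embryonic controls carried Bapx1-cre;Rosa26mTmG and the knockout (Eed KO) embryos Eedfl/fl;Bapx1-cre;Rosa26mTmG, all labelled C57BL/6 at E13.5, with stomach and intestine taken apart and GFP+ cells sorted. The study's reporting notes, in contrast to that label, give mixed strain backgrounds for the mouse lines. Bapx1 is expressed in gut mesenchyme, and in both genotypes GFP marks the cells in which this Cre was active. The adult libraries are labelled WT or EED-KO intestinal mesenchyme. By the study's methods they hold GFP+ cells from tamoxifen-treated mice with Pdgfrb-CreERT2 and the same reporter, a Cre active in pericytes and stromal cells, so controls and knockouts alike carry an active Cre.

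SIX-family proteins are homeodomain transcription factors. EYA proteins have no DNA-binding domain of their own, are brought to DNA by SIX-family partners, and act as coactivators and as phosphatases. DACH proteins are relatives of the Ski corepressors and act mostly as repressors in the same complexes. Pax genes stand upstream of and alongside them, and the network is best known from the eye, ear, kidney and skeletal muscle. Eed is a core subunit of Polycomb Repressive Complex 2 (PRC2), which methylates histone H3 at lysine 27 and keeps developmental regulators silent, many of them with CpG-rich promoters.

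Embryonic libraries held between 30236159 and 39606157 counts on genes and adult libraries between 11404712 and 15903642. Levels are given as CPM, gene counts per 1000000 of a library total adjusted by edgeR's TMM scaling factor. These factors ran from 0.970 to 1.04 in the embryonic libraries and from 0.815 to 1.20 in the adult libraries. Calls required a Benjamini-Hochberg adjusted p below 0.05 in edgeR's quasi-likelihood test, over 16218 embryonic or 15039 adult genes, and a change of more than 2-fold. The study calls the libraries of a group biological replicates, but the labels do not tie them to embryos or animals, so the p-values measure the spread between these libraries. With 2 libraries against 2 an exact permutation test of 1 gene cannot go below p = 0.333, so every call rests on a spread shared across genes. Eed checked the labels of the embryos: it lay at 38.1 and 40.1 CPM in control intestine against 10.7 and 8.58 in Eed KO intestine, and at 40.0 and 41.5 CPM in control stomach against 11.5 and 7.40 in Eed KO stomach. In the adult libraries Eed was 29.7 and 33.4 CPM in controls and 25.6 and 25.0 in Eed KO. That log2 difference of -0.32 was not called (edgeR adjusted p = 0.317). By TPM, a scale per transcript length without the TMM factor, Eed was 34.8 and 38.1 in adult controls and 21.2 and 18.6 in Eed KO. The study also shows its own check of Eed deletion in adult pericryptal cells. The mesenchyme markers were high in the embryos, with a summed level from 13351 to 24720 CPM over 9 genes and none at 0.

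The promoters of the members are shown first, because PRC2 targets are often CpG-rich and because the printed set holds genes that were higher in the Eed KO stomach (Six3, Six4, Eya4) and genes that were not called there (Dach1, Eya3). RefSeq promoter windows (GRCm38.p6, 250 bases before to 50 after a start) matched 7 of the 9 members, all but Eya1 and Eya2. Each line runs 5′ to 3′ on the gene's strand and stops before the first annotated exon base of that gene, and capitals mark CpG dinucleotides. Six3 is shown at chr17:85620584-85620833 on the plus strand, Six4 at chr12:73113457-73113675 on the minus strand, Eya4 at chr10:23350137-23350193 on the minus strand, Dach1 at chr14:98169766-98170015 on the minus strand and Eya3 at chr4:132638796-132638986 on the plus strand.
Six3: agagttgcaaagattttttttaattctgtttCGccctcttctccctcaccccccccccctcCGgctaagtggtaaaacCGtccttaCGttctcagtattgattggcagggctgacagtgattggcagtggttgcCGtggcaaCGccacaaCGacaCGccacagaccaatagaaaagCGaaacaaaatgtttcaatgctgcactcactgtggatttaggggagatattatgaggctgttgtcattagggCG
Six4: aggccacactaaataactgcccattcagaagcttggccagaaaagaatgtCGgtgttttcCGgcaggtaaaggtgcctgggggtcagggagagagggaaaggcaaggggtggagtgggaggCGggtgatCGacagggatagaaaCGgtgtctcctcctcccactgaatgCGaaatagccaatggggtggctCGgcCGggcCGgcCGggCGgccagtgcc
Eya4: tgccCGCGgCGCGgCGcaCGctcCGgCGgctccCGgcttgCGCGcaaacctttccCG
Dach1: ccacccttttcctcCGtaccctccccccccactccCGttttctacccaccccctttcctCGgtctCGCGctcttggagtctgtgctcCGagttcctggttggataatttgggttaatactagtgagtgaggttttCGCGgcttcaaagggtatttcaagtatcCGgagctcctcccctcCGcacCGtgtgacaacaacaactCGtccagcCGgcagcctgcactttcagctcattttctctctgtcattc
Eya3: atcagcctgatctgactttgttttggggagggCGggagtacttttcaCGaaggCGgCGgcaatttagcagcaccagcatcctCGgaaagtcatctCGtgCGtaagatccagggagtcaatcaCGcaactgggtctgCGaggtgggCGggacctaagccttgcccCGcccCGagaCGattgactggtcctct

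CpG dinucleotides were frequent in these windows. Over the whole 300-base window the ratio of observed to expected CpG was 1.02 for Eya4 with 36 CpG, 0.955 for Eya3 with 25, 0.747 for Six3 with 14, 0.657 for Dach1 with 13 and 0.640 for Six4 with 15. Dach2 had 0.973 and Six5 0.559. All 7 lay above the median of 0.389 over 27025 windows, 1 per gene, and 3 of them (Eya3, Eya4, Dach2) lay above the upper quartile of 0.754. The Dach2 window had 15 CpG, many of them in a repeat of CA and CG. Its GC content of 45.3% was under the lower quartile of 45.7% over all windows. Eya4, which rose in the Eed KO stomach, and Eya3, which was not called, were both among the CpG-rich ones. The MEF3 sequence TCAGGTTTC, a site known to be bound by SIX-family proteins, was searched on both strands as the only motif: 0 of the 7 windows held it, against 116 of 27025 windows (0.429%). At so low a share, 7 windows are too few to tell the members from other genes.

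In control embryos the members spanned a wide range of levels. Compared per transcript length on the TPM scale, the order in control intestine was Six5 at 65.3 ± 3.57 (SD, n = 2), Eya3 at 43.4 ± 0.0056, Dach1 at 6.56 ± 0.27, Six4 at 2.86 ± 0.13, Eya1 at 1.40 ± 0.0019, Eya4 at 0.914 ± 0.19, Dach2 at 0.518 ± 0.028 and Eya2 at 0.219 ± 0.033, with Six3 at 0. In control stomach it was Six5 at 66.6 ± 1.16 TPM, Eya3 at 40.9 ± 0.38, Dach1 at 16.1 ± 5.52, Eya4 at 5.71 ± 1.69, Six4 at 2.32 ± 0.17, Dach2 at 1.77 ± 0.36, Eya1 at 0.435 ± 0.055 and Eya2 at 0.335 ± 0.031, again with Six3 at 0. In either order the libraries of neighbouring genes did not overlap. Thus 1 gene of the SIX-family and 1 of the Eya group carried most of the RNA of these 9 genes, and the forebrain and eye regulator Six3 was not detected: 0 counts in each of the 4 control libraries, where a floor of 3 counts stands for at most 0.0992 CPM.

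In Eed KO embryos the upper end of the order was the same, with Six5 at 61.2 ± 2.62 and 60.8 ± 0.16 TPM and Eya3 at 38.6 ± 6.50 and 42.0 ± 3.20 TPM in intestine and stomach. Below them came, in Eed KO intestine, Dach1 at 8.59 ± 3.01, Eya4 at 4.41 ± 0.98, Six4 at 4.08 ± 0.24, Eya1 at 2.32 ± 0.23, Eya2 at 1.27 ± 0.19, Dach2 at 0.526 ± 0.096 and Six3 at 0.0388 ± 0.014 TPM, with overlapping libraries for Eya4 and Six4. In Eed KO stomach they were Eya4 at 27.8 ± 1.74, Dach1 at 11.2 ± 0.46, Six4 at 6.86 ± 0.40, Eya2 at 2.57 ± 0.86, Eya1 at 1.32 ± 0.099, Dach2 at 1.24 ± 0.21 and Six3 at 0.814 ± 0.36 TPM, with overlapping libraries for Eya1 and Dach2. Eya4 thus stood behind only Six5 and Eya3 in Eed KO stomach, where Dach1 had held that place in controls.

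**Figure D1:**
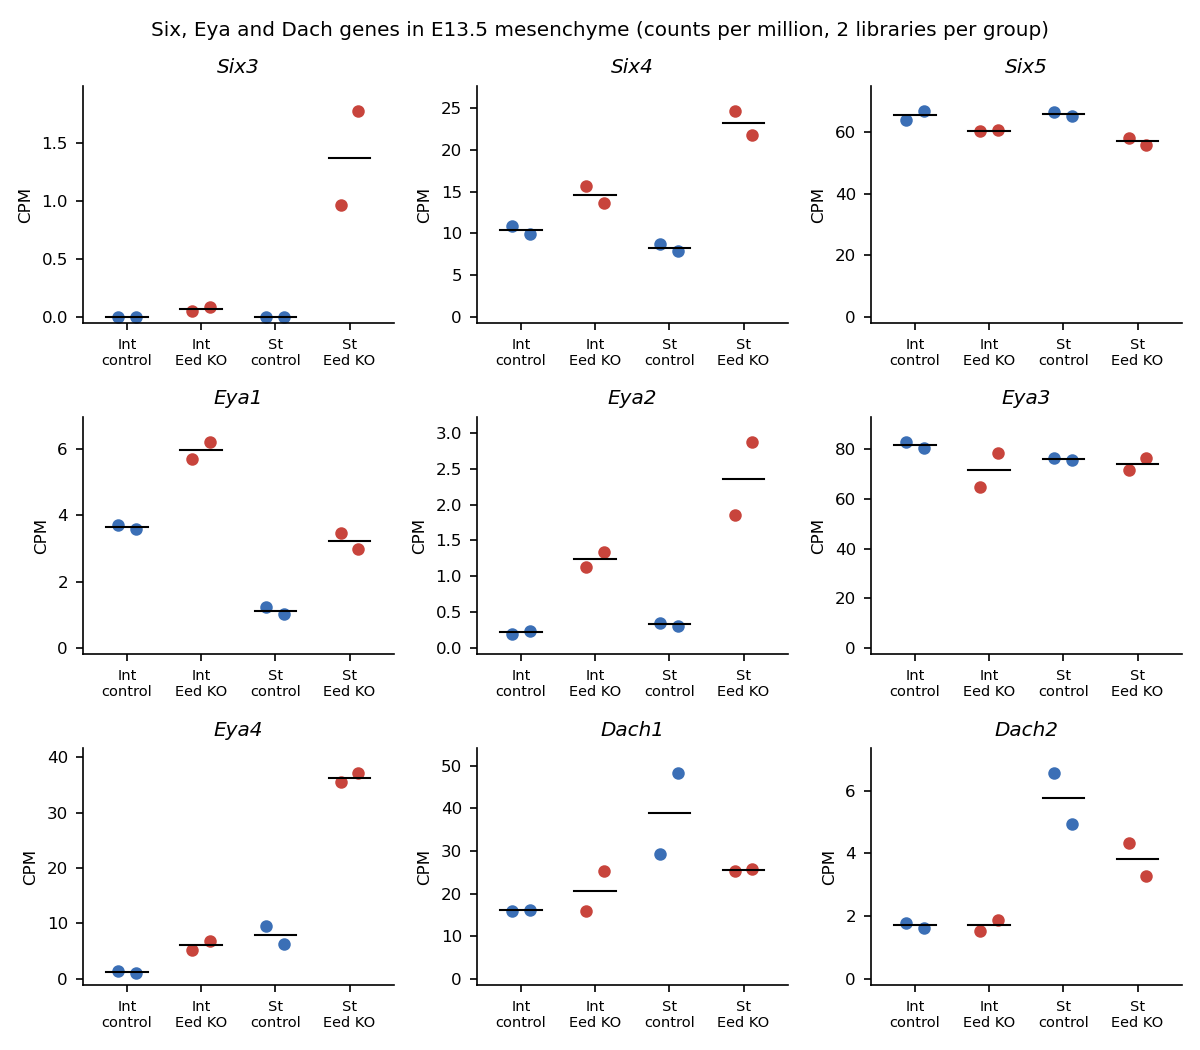
CPM of the 9 genes in each E13.5 library (points; blue control, red Eed KO) with the mean of the 2 libraries (bar), each panel on its own linear axis, for intestine (Int) and stomach (St). Six3 leaves 0 mainly in Eed KO stomach, Eya4 reaches 35.4 and 37.2 CPM there, and Eya3 and Six5 stay within narrow ranges.

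To ask what loss of PRC2 did to the network in the stomach, the 2 Eed KO stomach libraries were compared with the 2 control stomach libraries. Of the 9 members 5 rose (Six3, Six4, Eya1, Eya2, Eya4) and 0 fell, where 4.84% of all tested genes were called higher and 0.808% lower (5.65% in either direction). Six3 passed the filter on low counts only through these Eed KO stomach libraries and so had to differ. Its call is a description, which leaves Six4, Eya1, Eya2 and Eya4, 4 of the other 8. The libraries of the groups did not overlap for 8 of the 9 members, all but Eya3, against 55% of all tested genes.

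Among the SIX-family genes, Six3 had 0 counts in both control stomach libraries and 36 and 65 counts in Eed KO stomach, or 0.965 and 1.78 CPM. Measured against 3 counts over the control group, and without the counting error of the Eed KO reads, Six3 was at least 33.7-fold higher. Its divergent noncoding neighbour Six3os1 went the same way, from 0 counts in both controls to 65 and 112, at least 59.0-fold higher. The exons of both genes share 106 bases on opposite strands and those of Six3 share another 168 with Gm28528, and reads in the shared bases cannot be told apart here. Six4, which takes part in muscle and sensory development, was 8.69 and 7.85 CPM in controls and 24.7 and 21.8 in Eed KO. Its log2 fold change was 1.49 ± 0.14 (SE; 2.81-fold; edgeR adjusted p = 0.00138). Six5, a gene beside the myotonic dystrophy kinase gene Dmpk, was 66.6 and 65.2 CPM against 58.3 and 55.8, a log2 difference of -0.21 that was not called (adjusted p = 0.211). The low SIX-family genes were thus higher in both Eed KO libraries than in either control, and the abundant Six5 was lower in both.

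Among the Eya coactivators, Eya4, known from inherited deafness and heart muscle disease, was 9.50 and 6.24 CPM in control stomach and 35.4 and 37.2 in Eed KO stomach. Its log2 fold change was 2.21 ± 0.24 (4.62-fold; edgeR adjusted p = 0.00241). Eya2 rose by more from a lower base, from 0.348 and 0.306 CPM to 1.85 and 2.88 (log2 fold change 2.84 ± 0.35; 7.18-fold; adjusted p = 0.00386). Eya1, the gene of branchio-oto-renal syndrome, was 1.22 and 1.02 CPM in controls and 3.46 and 2.99 in Eed KO (log2 fold change 1.53 ± 0.20; 2.88-fold; adjusted p = 0.00553). Without the second control stomach library the log2 fold change of Eya1 was 1.40 and the call was lost (adjusted p = 0.0537), and with DESeq2 and 1 factor estimated from spike-ins that of Eya2 was (adjusted p = 0.134). Eya3, the abundant Eya gene, was 76.3 and 75.6 CPM against 71.5 and 76.5. Its log2 difference was -0.04 with an approximate 95% interval from -0.26 to 0.18. Each of the low Eya genes was therefore higher in both Eed KO libraries than in either control, and Eya3 was not.

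Neither Dach gene was called in the stomach, and both had lower values there. Dach1, a cofactor with roles in limb and eye, was 29.4 and 48.3 CPM in controls and 25.3 and 25.8 in Eed KO, a log2 difference of -0.61 ± 0.27 (edgeR adjusted p = 0.231). The control libraries of Dach1 differed from each other by more than the lower one differed from the knockouts. Dach2 was 6.58 and 4.94 CPM in controls and 4.34 and 3.29 in Eed KO, a log2 difference of -0.59 ± 0.24 (adjusted p = 0.191). These values are relative to all genes: scaled to spike-in totals instead, the median tested gene was 2.39 higher on the log2 scale in Eed KO stomach and 1.85 higher in Eed KO intestine, and on that scale the Dach genes were higher in Eed KO stomach.

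Markers of other cells that the GFP+ sort could hold were summed in the same libraries. The 6 endothelial markers summed to 15.4 and 14.9 CPM in control stomach and 25.4 and 46.1 in Eed KO stomach, with 4 of 6 called higher and none at 0. The 5 smooth muscle markers summed to 2463 and 2557 CPM in controls and 1582 and 1814 in Eed KO (0 of 5 called), and the 4 mesothelial markers to 484 and 505 against 305.0 and 403 (0 of 4 called). Of the macrophage markers 1 of 3 tested, Lyz2, was called lower. The 6 skeletal muscle markers summed to 0.985 and 1.04 CPM in controls and 2.23 and 1.92 in Eed KO, and 1 of 2 tested was called higher. That was Myod1, which is also on the target list, at 0.290 and 0.178 CPM against 1.96 and 1.23. It passed the filter on low counts only through Eed KO libraries, so its call is a description. Myf5 had 0.435 and 0.510 CPM in controls and 0.215 and 0.192 in Eed KO, Myog 0.232 and 0.255 against 0 and 0.110, and Chrna1 was at 0 in both knockouts. Enteric neural crest markers summed to 7.30 and 9.71 CPM in controls and 10.2 and 12.9 in Eed KO, with 0 of 7 called. The part of these markers in the values of the SIX-family and Eya genes was not tested. In bulk RNA, fewer cells of a type and less RNA per cell cannot be told apart, and likewise for more.

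In the intestine the same comparison gave fewer calls. Of the 9 members 2 rose (Eya2, Eya4) and 0 fell, where 2.38% of all tested genes were called higher and 0.228% lower (2.61% in either direction). The groups did not overlap for 7 of the 9, all but the Dach genes, against 38.3% of all tested genes. The 7 include Six3, on 0 counts in the controls and 2 and 3 in the Eed KO libraries, which entered the test only through Eed KO stomach. Eya4 went from 1.49 and 1.08 CPM in control intestine to 5.27 and 6.87 in Eed KO intestine (log2 fold change 2.23 ± 0.27; 4.69-fold; edgeR adjusted p = 0.00884). Eya2 went from 0.197 and 0.235 CPM to 1.13 and 1.34 (log2 fold change 2.51 ± 0.38; 5.68-fold; adjusted p = 0.0181). Both were higher in each Eed KO library than in either control, but the calls did not outlast the loss of a control library. Eya4 had an adjusted p of 0.0642 without the first control intestine library and 0.0753 without the second, and Eya2 had 0.167, 0.109 and, without the second Eed KO intestine library, 0.0731, with log2 fold changes from 2.02 to 2.63 in these fits.

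The other genes called in the stomach had smaller values in the intestine. Six4 was 10.9 and 9.89 CPM in control intestine and 15.6 and 13.6 in Eed KO, a log2 difference of 0.49 ± 0.14 (edgeR adjusted p = 0.126). Eya1 was 3.71 and 3.60 CPM against 5.70 and 6.22, a log2 difference of 0.70 ± 0.19 (adjusted p = 0.104). Neither was called, although the groups of neither gene overlapped. Six3 had 0 counts in the controls and 2 and 3 counts in the Eed KO libraries, too few to call. Against 3 counts over the control group the ratio was 1.49. It leaves out the counting error of the few Eed KO reads, so it is not a lower bound.

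The remaining members were not called in the intestine. Dach1 was 15.8 and 16.2 CPM in controls and 16.0 and 25.2 in Eed KO, and Dach2 1.80 and 1.61 against 1.53 and 1.88, so their groups overlapped. Eya3 was 83.0 and 80.5 CPM against 65.0 and 78.4 (log2 difference -0.19; adjusted p = 0.558), and Six5 64.0 and 67.0 against 60.3 and 60.9 (log2 difference -0.11; adjusted p = 0.71). Endothelial markers summed to 15.4 and 20.5 CPM in control intestine and 48.6 and 49.4 in Eed KO intestine, with 2 of 6 called higher, and their part was not tested here either.

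**Figure D2:**
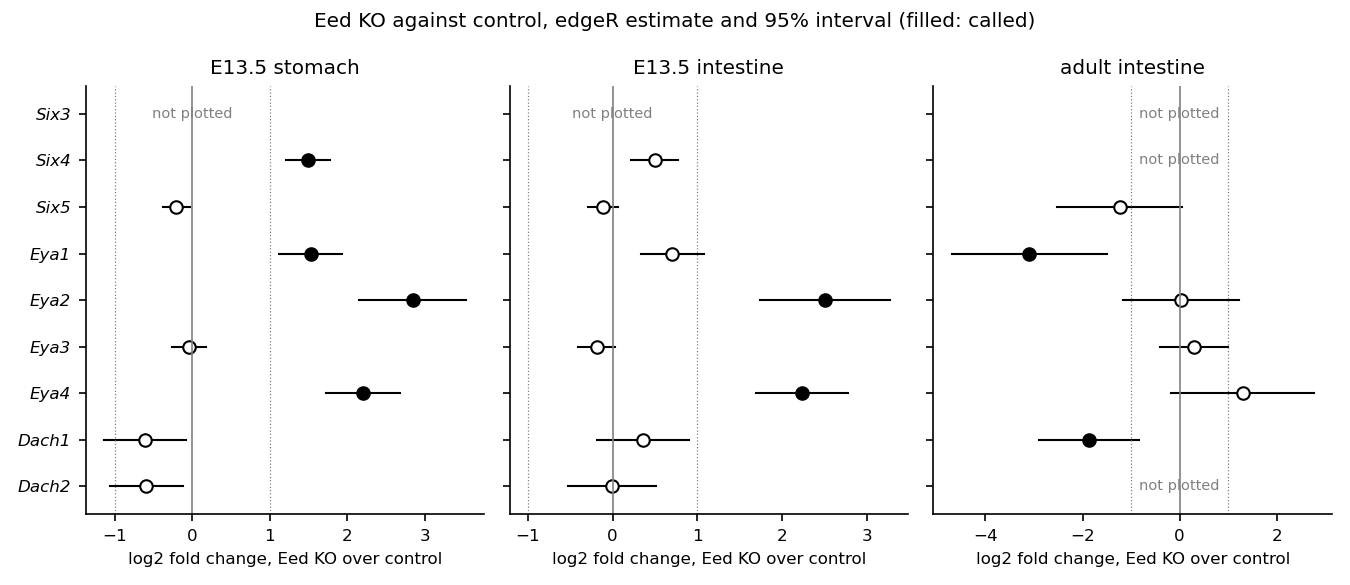
Log2 fold change of Eed KO over control for each gene (point, filled where called) with its approximate 95% interval (line), by edgeR. Panels show E13.5 stomach, E13.5 intestine and adult intestine, and dotted lines mark a log2 fold change of 1 in either direction. Six3 is not plotted because its controls held 0 counts, and in the adult panel Six4 and Dach2 were below the filter; Eya2 and Eya4 lie above 2 in both embryonic organs, and Eya1 is above 0 in the embryos and at -3.10 in the adult.

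Whether the effect of Eed loss depended on the organ was tested as an interaction, with the study's looser limit of an adjusted p under 0.2. None of the 9 members was called by edgeR, where 0.462% of all tested genes were, and 954 genes had an unadjusted p under 0.05. The fit with the replicate number as a block called 350 genes and 0 members, with Six4 at -0.997 (adjusted p = 0.0151). Stomach and intestine were dissected from each animal, but the labels do not say that a shared number marks a shared animal. Six4 came nearest: its intestine effect minus its stomach effect was -0.997 ± 0.20 on the log2 scale (edgeR adjusted p = 0.204), just under the limit of size as well, and it was called by DESeq2 (adjusted p = 0.011) and with another scaling (RLE; adjusted p = 0.194), while its adjusted p ran from 0.000475 to 0.926 over all alternatives. Eya1 had a difference of -0.82 ± 0.27 (adjusted p = 0.613) and Dach1 one of 0.97 ± 0.38 (adjusted p = 0.785), which was called only with DESeq2 and the spike-in factor (adjusted p = 0.104). For Eya4 the difference was 0.02 with an approximate 95% interval from -0.62 to 0.67. For Eya2 it was -0.34 with one from -1.43 to 0.75. Organ differences of either sign inside these intervals remain compatible with the data. Six3 had too few counts in 3 of the 4 groups for this test to be read.

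Between the organs of control embryos the network was not even. Of the 9 members 1 was higher in intestine (Eya1) and 3 in stomach (Eya4, Dach1, Dach2), against 1.68% and 3.39% of all tested genes (5.07% in either direction). The groups did not overlap for 7 of the 9, against 51.2% of all tested genes. Eya1, at 3.71 and 3.60 CPM in intestine and 1.22 and 1.02 in stomach, was 3.27-fold higher in intestine (edgeR adjusted p = 0.0029). Eya4, at 1.49 and 1.08 against 9.50 and 6.24 CPM, was 6.07-fold higher in stomach (adjusted p = 0.00165). Eya1 and Eya4 therefore had opposite organ patterns. Both calls were lost when libraries were scaled to spike-in totals (adjusted p = 0.605 and 0.278), with log2 differences of 1.71 and -2.57 relative to all genes.

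The Dach genes were both higher in control stomach. Dach2 was 3.36-fold higher (adjusted p = 0.0067) and Dach1 2.42-fold higher (adjusted p = 0.0323), by edgeR. Without the first or the second control intestine library neither was called (adjusted p = 0.0578 and 0.058 for Dach2, 0.211 and 0.16 for Dach1), and without the second control stomach library the log2 difference of Dach1 fell to -0.87 (adjusted p = 0.178). Cell markers also differed between these control groups. Of the endothelial markers 3 of 6, and of the smooth muscle markers 1 of 5 (Des), were called higher in intestine. Epithelial Cldn6 and Epcam (2 of 6), mesothelial Wt1 (1 of 4), mesenchymal Twist1 (1 of 9) and skeletal muscle Myf5 (1 of 2 tested) were called higher in stomach. Myf5 passed the filter only through the control stomach libraries, so its call is a description. The part of these markers was not tested.

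In Eed KO embryos 3 members differed between organs, Eya4, Six3 and Dach2, each higher in stomach, where 2.94% of all tested genes were called higher in stomach, 1.46% in intestine and 4.4% in either direction. Six3 entered the test only through Eed KO stomach and so had to differ, and its call is a description beside those of Eya4 and Dach2. Of the 9, 8 did not overlap, against 44.5% of all tested genes. Eya4 kept a 5.98-fold stomach excess (edgeR adjusted p = 0.00171), next to the 6.07-fold excess of the controls. Six3 had 101 counts over both Eed KO stomach libraries and 5 over both Eed KO intestine libraries, a 19.1-fold difference. Dach2 was 2.24-fold higher in stomach (adjusted p = 0.0374). The call of Dach2 was lost without any 1 of the 4 libraries (adjusted p = 0.0736 to 0.168). Eya1 was 1.85-fold higher in intestine (adjusted p = 0.0338), under the size limit. Smooth muscle markers (3 of 5: Des, Cnn1 and Tagln) and macrophage Lyz2 were called higher in Eed KO intestine and Wt1 and Myod1 in Eed KO stomach, and their part was not tested.

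The genes around the network were followed with a list of 33 partners, cofactors and known targets, 29 of which were tested in the embryos. In Eed KO stomach 9 of 29 rose and 1 fell, where 4.84% and 0.808% of all tested genes did. The median log2 fold change was 0.11 against 0.00 over all tested genes. Of the 9, Pax2, Pax3, Pax6, Tbx1, Fgf8 and Myod1 passed the filter only through Eed KO libraries, so their calls are descriptions. That leaves Igfbp5, Ccnd1 and Sall1. In Eed KO intestine 5 rose and 0 fell, where 2.38% and 0.228% of all tested genes did, with a median of 0.32 against 0.01. Setting aside Pax2, Pax3 and Pax6 for the same reason leaves Ccnd1 and Sall1. Between control organs 1 was higher in intestine and 2 in stomach, where 1.68% and 3.39% of all tested genes were. Those 2 include Myf5, which passed the filter only through control stomach libraries. Between Eed KO organs the counts were 1 and 3, where 1.46% and 2.94% were called, and by interaction 0, where 0.462% were.

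The same 3 Pax genes were called higher in both organs. Pax6, a regulator of eye and endocrine pancreas, was at 0 and 0.0255 CPM in control stomach and at 8.53 and 10.0 in Eed KO stomach, and at 0 in both control intestine libraries against 0.712 and 2.22 in Eed KO. Pax2, of kidney, ear and optic nerve, went from 0.0869 and 0.051 CPM to 1.47 and 2.08 in stomach and from 0.0281 and 0.0673 to 0.923 and 1.74 in intestine. Pax3, of muscle precursors and neural crest, reached 0.858 and 0.905 CPM in Eed KO stomach and 0.369 and 0.342 in Eed KO intestine. These genes, like Six3, were at or near 0 in the controls, so they passed the filter only through Eed KO libraries and their calls are descriptions too. The corepressors and other cofactors on the list (Tle1, Tle4, Ski, Skil, Ncor1, Hdac3, Sobp, Mcrs1) were not called in either embryonic organ.

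Among the listed targets, Sall1, a zinc finger gene of kidney and limb, rose in both organs, 14.6-fold in stomach and 3.64-fold in intestine (edgeR adjusted p = 0.00118 and 0.0184). Ccnd1, the cyclin of early cell cycle progression, rose 3.22-fold in intestine (edgeR adjusted p = 0.0118). It was also called higher in stomach, from 89.2 and 114 CPM to 201 and 208. Igfbp5 was called higher in stomach but not in intestine, from 1375 and 1544 CPM to 2480 and 3736. In stomach Myod1, one of the skeletal muscle markers, was called 6.80-fold higher. Myod1 passed the filter only through Eed KO libraries, so its call is a description. Tbx1 and Fgf8 were called higher there too, from 0.029 and 0.0255 CPM in controls to 0.858 and 1.26 and to 0.349 and 0.548 CPM, on 2 counts over the controls of each gene, and like the Pax genes they passed the filter only through Eed KO libraries. Gdnf, a ligand of enteric neuron precursors, was the one listed gene that fell there, from 76.5 and 66.5 CPM to 28.5 and 27.1 (log2 fold change -1.36 ± 0.10; adjusted p = 0.000649).

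Across the 8 embryonic libraries the genes most like Eya1, Eya2, Eya4, Six4 and Dach1 in log2(CPM + 0.5) were found by Pearson's r over 13385 other genes with a mean of at least 1 CPM. Eya4 was most like Crhr1 (r = 0.996), Gabra5 (0.988) and Smpd1 (0.988), Eya2 like Dmrta2 (0.994), Tbx5 (0.993) and Icam1 (0.992), and Six4 like Dennd2c (0.976), Trp53inp1 (0.974) and Slc35e2 (0.973). Eya1 was most like Pim1, Adamts18 and Prox1 (0.991 to 0.985), and Dach1 like Rnf24, Ptger1 and Hoxa6 (0.960 to 0.946). The 8 libraries fall into 4 groups that share organ and genotype, so these values describe patterns over groups. Among the members Six4 and Eya2 ran together most closely (r = 0.906), Six5 ran opposite to Eya2 (-0.959) and Six4 (-0.930), and Eya1 ran opposite to Dach2 (-0.840). Six5 itself moved little, between 55.8 and 67.0 CPM, and was not called in any embryonic comparison.

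The adult intestine showed a different picture, with 3 of the members at or near 0 and 2 lower in the Eed KO. Of the 9 members 6 passed the filter. Six3 and Dach2 had at most 1 count in any library, and Six4 had 0 counts in 3 libraries and 7 in the second Eed KO library. Per transcript length in adult controls, Eya3 (3.21 ± 0.23 TPM), Eya1 (2.90 ± 0.42), Dach1 (1.96 ± 0.17), Six5 (1.60 ± 0.51), Eya2 (1.59 ± 0.30) and Eya4 (0.419 ± 0.11) followed each other, with overlapping libraries for Eya3 and Eya1, for Dach1 and Six5, and for Six5 and Eya2. In adult Eed KO they were Eya3 at 2.70 ± 0.83 TPM, Eya2 at 1.08 ± 0.30, Eya4 at 0.723 ± 0.47, Six5 at 0.456 ± 0.047, Dach1 at 0.369 ± 0.15 and Eya1 at 0.248 ± 0.28, with overlap between neighbours from Eya2 downward. Beside the 65.3 and 43.4 TPM of Six5 and Eya3 in control embryonic intestine these are low values, but the adult libraries came from another kit and another sort, and no test was made between ages.

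In the adult comparison 0 of the 6 tested members rose and 2 fell (Eya1, Dach1), where 12.3% of tested genes were called higher and 7.23% lower (19.6% in either direction); 4 of the 6 did not overlap, against 65.3% of tested genes. Eya1 was 7.82 and 9.86 CPM in adult controls and 1.90 and 0.231 in adult Eed KO, a log2 fold change of -3.10 ± 0.80 (edgeR adjusted p = 0.0322). Dach1 was 5.84 and 5.31 CPM against 1.90 and 1.16, a log2 fold change of -1.87 ± 0.51 (adjusted p = 0.0388). These changes rest on few reads: Eya1 had 107 and 141 counts against 19 and 3, and Dach1 80 and 76 against 19 and 15. Dach1 was no longer called without the first control (adjusted p = 0.144), the second control (0.104) or the second Eed KO library (0.115), nor with the replicate number as a block (0.0567).

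The other adult members were not called. Eya4 was 0.803 and 0.559 CPM in controls and 2.40 and 1.00 in Eed KO (log2 difference 1.30 ± 0.74; edgeR adjusted p = 0.247), and Six5 2.26 and 1.47 against 0.801 and 0.772 (log2 difference -1.24 ± 0.64; adjusted p = 0.211). Eya2 was 2.05 and 1.61 CPM against 1.40 and 2.31, and Eya3 7.30 and 6.78 against 10.1 and 7.25, with overlapping groups for both. Eya2 and Eya4, called in both embryonic organs, thus had approximate adult 95% intervals of the log2 difference from -1.16 to 1.22 and from -0.17 to 2.77.

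The cell makeup of the adult libraries moved with the genotype. Macrophage markers summed to 526 and 655 CPM in controls and 13084 and 11455 in Eed KO, with 5 of 5 called higher and none at 0. Mesenchyme markers fell from 11363 and 11878 CPM to 4974 and 3474, with 4 of 7 tested called lower (Col3a1, Pdgfra, Col1a2, Col1a1) and Nkx3-2, also known as Bapx1, at 0 in 1 library of each genotype. Pancreas markers stood at 690 CPM in the second Eed KO library and between 10.7 and 20.4 in the other 3. Smooth muscle markers rose from 1765 and 2151 CPM to 2995 and 3509, with 2 of 5 called higher (Cnn1, Myh11). Enteric neural crest markers rose from 2.56 and 3.01 CPM to 18.8 and 20.5, with 1 of 4 tested called higher (Elavl4). Of the endothelial markers 1 of 6 (Pecam1) was called higher, and of the lymphocyte markers 1 of 4 (Cd79a) lower. None of the epithelial (5 tested) or mesothelial (4) markers was called. The part of these shifts in the fall of Eya1 and Dach1 was not tested. Eed itself was not called lower in these libraries, although its TPM was lower in both Eed KO libraries than in either control. The comparison is therefore described as one between libraries labelled WT and EED-KO. On the list of 33, 18 were tested in the adult, where 12.3% and 7.23% of all tested genes were called higher and lower; 5 rose (Skil, Myc, Ezr, Slc12a2, Tle4) and 1 fell (Fgf10, 4.53-fold lower, adjusted p = 0.0125 by edgeR), with a median log2 fold change of -0.29 against 0.00 over all genes.

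**Figure D3:**
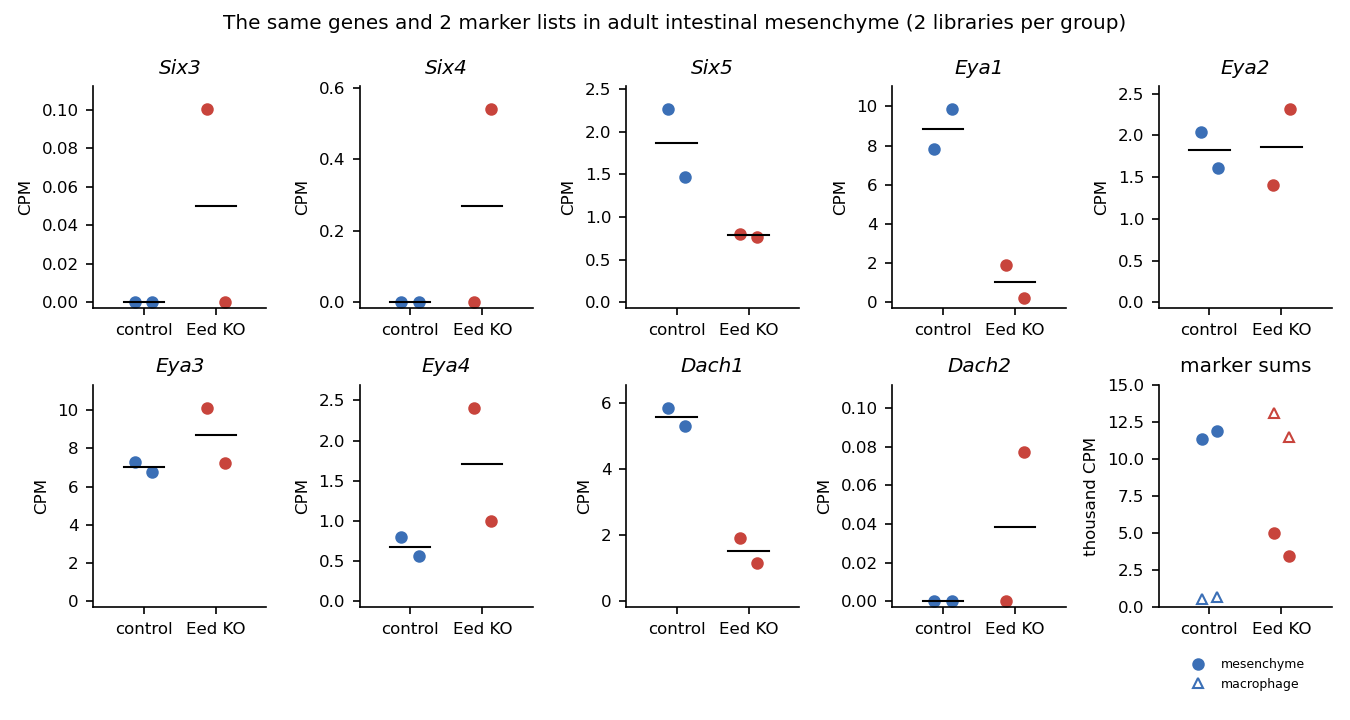
CPM of the 9 genes in each adult intestinal library (points; blue control, red Eed KO) with the mean of the 2 libraries (bar), and in the last panel the summed markers of mesenchyme (filled circles) and macrophages (open triangles) in units of 1000 CPM. Eya1 and Dach1 are lower in both Eed KO libraries, in which macrophage markers reach 13084 and 11455 CPM.

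Open chromatin at the promoters was then compared between the lists. A promoter peak is a peak within 1000 bp of the outermost start in the deposited annotation, and its height is the fold enrichment given by the authors' peak caller. Of the 9 members 8 had one in control intestine and control stomach and 9 in both Eed KO lists, where 87.8% to 88.9% of all tested genes had one. The gene without one in controls was Six3, whose peaks in the Eed KO lists were weak, at 2.07-fold in intestine and 2.01-fold in stomach, near the lists' minimum of 2.00. Both had a −log10 q under 2, and with peaks of at least 2 the count was 8 in all 4 lists. With a window of 5000 bp, or with any transcript start of GENCODE vM21, the count was 9 in all 4 lists. The lack of a Six3 promoter peak in controls thus depended on the start and the window used. The deposited start of Six3 lies at 85613608 on chromosome 17, ahead of the RefSeq start. Over the whole 300-base RefSeq window (chr17:85620584-85620883), of which the printed bases are a part, a peak stood in both stomach lists, 2.49-fold in control and 2.15-fold in Eed KO, and none in the intestine lists. The intestine lists had peaks just beyond that window, within 1000 bp of the RefSeq start, 2.75-fold in control and 2.67-fold in Eed KO. Around Six3 and Six3os1 chromatin was thus listed as open in controls that held 0 counts of either gene.

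Promoter peaks of the genes that rose were about as high with Eed as without. Eya4 had 4.24-fold in control and 3.53-fold in Eed KO intestine and 3.84-fold and 3.57-fold in stomach. Eya2 had 4.58-fold and 3.73-fold in intestine and 4.23-fold and 4.67-fold in stomach. Six4 had 4.20-fold and 3.67-fold in intestine and 3.74-fold and 3.62-fold in stomach. Set beside all genes with a peak in both lists, the log2 ratios of Eed KO over control of Eya4, Eya2, Six4 and Eya1 lay between -0.29 and 0.15, inside the 5th to 95th percentile of all genes (-0.38 to 0.21 over 14174 genes in intestine, -0.29 to 0.26 over 14223 in stomach). The lists are pooled, so these ratios have no replicate error and no test was made.

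The shape of the promoter peaks differed among the members. Six4 (3105 to 3157 bp), Six5 (3413 to 3493 bp), Dach1 (2845 to 2926 bp) and Eya4 (1903 to 2327 bp) had wide peaks of 3.15-fold to 4.24-fold, where the upper quartile of promoter peak widths over all genes was 1529 to 1698 bp. Eya1 and Eya3 had narrow peaks of 668 to 970 bp and 8.76-fold to 10.7-fold. The heights of Eya1 ranked at the 84.9 to 92.3 percentile of all promoter peaks and those of Eya4 at the 8.37 to 13.8 percentile. Peak height did not follow RNA level between genes: Six5, the most abundant member, had the lowest promoter peaks of those with a peak in every list, and Eya1, at 1.40 and 0.435 TPM in control intestine and stomach, the highest.

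**Figure D4:**
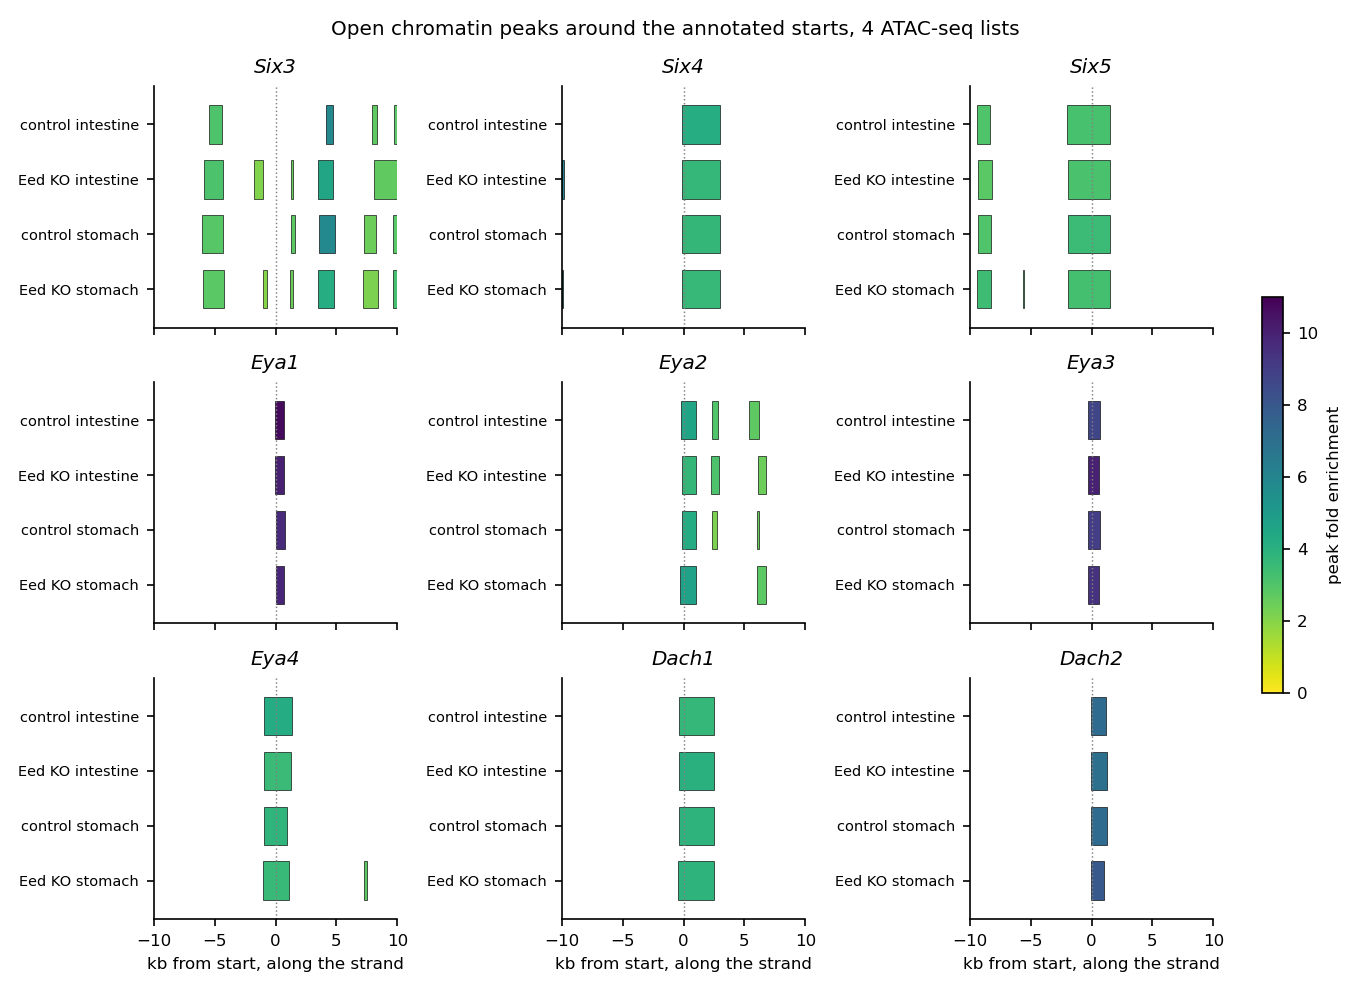
Peaks of the 4 ATAC-seq lists within 10 kb of each gene's deposited start (dotted line), drawn to scale along the gene's strand and coloured by fold enrichment, with peaks that run past the edge cut there. The wide promoter peaks of Six4, Six5, Eya4 and Dach1 and the narrow, higher ones of Eya1 and Eya3 recur in all 4 lists, and at Six3 the highest peak, 4.20-fold to 5.84-fold, lies near the start of Six3os1.

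Peaks were also counted over the whole loci, the gene body with 5000 bp on either side. Eya2 had 13 peaks in control intestine and 26 in Eed KO intestine, of which 13 (50%) overlapped no control peak, and 14 and 21 in stomach, of which 8 (38.1%) overlapped none. Over the whole lists 25.5% of Eed KO peaks in intestine and 21.0% in stomach overlapped no control peak, and the Eed KO intestine list is the longer one (119181 peaks against 103808). The added Eya2 peaks were low, at most 3.26-fold in intestine and 3.67-fold in stomach. Eya4 had 12 and 13 peaks in intestine and 16 and 22 in stomach, with 5 of the 22 (22.7%) in Eed KO only.

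Dach1 had fewer peaks in the Eed KO lists, 4 in intestine and 7 in stomach. Of its 9 peaks in control intestine 7 (77.8%) and of its 10 in control stomach 7 (70%) overlapped no Eed KO peak, against 14.3% and 19.9% of control peaks over the whole lists. Of the Eed KO peaks, 2 of 4 (50%) in intestine and 4 of 7 (57.1%) in stomach overlapped no control peak. The strongest control peaks without a counterpart reached 4.82-fold in intestine and 4.41-fold in stomach. Eya1 lost 5 of 9 (55.6%) in stomach, the strongest at 5.31-fold, and 2 of 7 in intestine, while its RNA rose in stomach. Over the 9 loci together 24 of 66 Eed KO peaks in intestine (36.4%) and 18 of 69 in stomach (26.1%) had no control counterpart, and 11 of 53 (20.8%) and 14 of 64 (21.9%) control peaks had none in Eed KO. Six4, Six5 and Dach2 each had 1 peak, at the promoter, in all 4 lists.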

How the data were processed

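Counts per gene were deposited by the authors as unnormalised featureCounts tables, made after trimming and STAR alignment to mm10 with GENCODE vM4; whether counting used strand is not given in the sources used here. ATAC-seq peak lists were deposited with fold enrichment and −log10 q as the authors' MACS2 calls on 2 pooled libraries per group. Their weakest entries have a −log10 q near 1.0, although the stated limit was q = 0.01. CPM (on TMM-adjusted library totals) and TPM (without TMM factors) were computed here from the counts, leaving out 99 spike-in transcripts. Tests used edgeR 4.0.16 (TMM, filterByExpr, quasi-likelihood, Benjamini-Hochberg) in R 4.3.3, with the 8 embryonic libraries in 1 fit of 4 group means and the 4 adult libraries in their own. DESeq2 1.42.0, other scalings, filters, a replicate block and left-out libraries were tried as alternatives, and the fits were tested on simulated data. Intervals given as 95% run 2 SE to either side of the estimate, which is approximate and may be too narrow with so few libraries. Floors cover counting error only. All members were described. Of the list of 33, the genes called in Eed KO against control were named. Members and lists were chosen with earlier results of these data known. Other SIX-family genes are not reported here.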

Additional observations from a re-analysis of the deposited data

Results flagged for a closer look

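Eya1 had log2 differences of opposite sign between libraries labelled Eed KO and control in the embryo and in the adult. Its log2 fold change was 1.53 in E13.5 stomach, where both Eed KO libraries (3.46 and 2.99 CPM) lay above both controls (1.22 and 1.02), and 0.70 in E13.5 intestine (5.70 and 6.22 against 3.71 and 3.60 CPM). The stomach call was lost without the second control stomach library (edgeR adjusted p = 0.0537), and the intestine value was not called (adjusted p = 0.104). In adult intestine it was -3.10, with both Eed KO libraries (1.90 and 0.231 CPM) below both controls (7.82 and 9.86). Eed itself was not called lower in the libraries labelled EED-KO there, at 25.6 and 25.0 CPM against 29.7 and 33.4. On the TPM scale it was 21.2 and 18.6 against 34.8 and 38.1. The difference itself was not tested, because the embryonic and adult libraries came from separate kits and fits. The adult libraries also differ in cell markers, with macrophage markers at 526 and 655 CPM in controls and 13084 and 11455 in Eed KO, and their part was not tested.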

How the results depend on the processing

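Of the member fold changes recomputed under the alternatives, 487 kept direction and call, 33 lost a call, 14 gained one and 22 changed sign. Scaled to spike-in totals, fold changes are given relative to the median of all genes and calls are not: genes called numbered 155 between control organs, 15438 and 13688 for Eed KO in stomach and intestine, 20 by organ dependence and 115 between Eed KO organs, and members called 0, 9, 9 and 1 (0 by organ dependence). Under DESeq2 with 1 RUVg spike-in factor, members called were 3 in Eed KO stomach, 1 in intestine, 2 by organ dependence (241 genes) and 1 in the adult. DESeq2's Wald test called 685 genes in Eed KO intestine and 207 by organ dependence, with 1 member, as RLE scaling did (1 member). Without a filter 800 and 237 genes were called there. With the compared groups alone 244 were called in Eed KO intestine and 397 between Eed KO organs.

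The labels do not say that a replicate number marks a shared animal or day, and same-numbered deviations correlated by 0.104 to 0.714 in the embryos and -0.0734 in the adult. The replicate block gave 350 genes by organ dependence, 1131 between Eed KO organs, and 1 adult member, since Dach1 was lost (adjusted p = 0.0567).

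Leaving out 1 library gave 370 to 500 genes and 2 to 4 members between control organs, 344 to 650 genes in Eed KO stomach, 74 to 363 genes and 0 to 2 members in Eed KO intestine, 27 to 97 genes by organ dependence, 304 to 528 genes and 1 to 2 members between Eed KO organs, and 1 to 2 members in the adult. The log2 values that crossed 0 ran from -0.039 to 0.038 for Six5 between control organs, -0.090 to 0.0083 for Eya3 in Eed KO stomach, -0.0056 to 0.65 for Dach1 and -0.16 to 0.14 for Dach2 in Eed KO intestine, -0.31 to 0.30 for Eya4 and -0.62 to 0.015 for Eya2 by organ dependence, -0.18 to 0.087 for Eya3 between Eed KO organs and -0.39 to 0.32 for Eya2 in the adult. Other sign changes were Six5 at 0.0034 between control organs, Dach1 at -0.20 and Dach2 at 0.050 in Eed KO intestine, and adult Eya2 at -0.063, with the RUVg factor; Dach2 at 0.035 with spike-in totals and 0.0071 with the block; and adult Eya2 at -0.0023 without a filter. The cause was not tested. The promoter peak counts of the members stayed within 1.5 times under every alternative run. Few counts limit Six3, Eya2 and the adult members.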
